A study of Homo sapiens with 10 samples.

Results

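In transformed ER-Src cells, 8707 of the 80265 STAT3 sites on chromosomes 1 to 22 and X (10.8%, Wilson 95% interval 10.6 to 11.1%) had no site of FOS, JUN, JUNB or NFKB1 beside them. These lone STAT3 sites were chosen by position: a STAT3 peak was taken when no summit of the other 4 proteins in transformed cells lay within 300 bp of its own summit, the base with the most overlapping reads. The whole series held 879550 peaks on these chromosomes. Among the remaining STAT3 sites, 25759 had an AP-1 protein (FOS, JUN or JUNB) without NFKB1, 1110 had NFKB1 without AP-1, and 44689 had both.

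The data are 10 ChIP-seq peak lists, 1 for each of the 5 proteins in non-transformed and in transformed cells. ER-Src cells are MCF10A, an immortalized human breast epithelial line, carrying the viral oncoprotein v-Src joined to the part of the estrogen receptor that takes up ligand, and 4-hydroxy-tamoxifen switches Src on and transforms the cells. The transformed group had 1 µM 4-hydroxy-tamoxifen for 12 h, and the non-transformed group carries the same fusion without the drug; names inside the lists give ethanol for 36 h for the latter. All cells are of this 1 engineered line. The STAT3 antibody in the labels, Cell Signaling 9131, has the number under which the study lists an antibody against tyrosine-phosphorylated STAT3. Each group is 1 library, so no difference below has a replicate check and no test between conditions was possible. Intervals cover the sampling of sites or the counting of reads within a library and not the spread between cultures.

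STAT3 is a latent transcription factor that is phosphorylated on tyrosine downstream of Src and of cytokines such as interleukin 6, and then forms dimers, enters the nucleus and binds DNA. AP-1 is a dimer of FOS and JUN family proteins, and NFKB1 gives rise to the p50 subunit of NF-κB. These factors take part in an inflammatory loop in this cell model, and they often occupy common regulatory regions.

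The libraries held 4837474 to 22082403 reads after the authors' filter, and the depth bears on what counts as alone. The STAT3 library of transformed cells had 8967267 reads, and the FOS library of the same state had 22082403, or 2.46 times as many. The lowest peak height in the lists of transformed cells was 0.446 reads per 1000000 filtered reads (RPM) for STAT3, 0.413 for NFKB1, 0.317 for JUNB, 0.271 for JUN and 0.226 for FOS. Each of the other lists therefore reached down to a lower RPM than the STAT3 list did. In non-transformed cells the NFKB1 list went down only to 0.827 RPM, from 4837474 reads, whereas the STAT3 list went down to 0.457, from 10929003 reads.

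The rule fixes a distance above 300 bp, and the distances beyond it were spread over several orders of magnitude. The nearest summit of another protein lay at a median of 1922 bp (order-statistic 95% interval 1837 to 2004 bp), with the middle 50% of sites from 649.5 to 6007 bp and the farthest at 353994 bp. At the STAT3 sites with partners the median was 12 bp. The closest protein was FOS at 3244 lone sites (37.3%), JUN at 2457 (28.2%), NFKB1 at 1610 (18.5%) and JUNB at 1396 (16%), an order that the lengths of the lists share in part, FOS being the longest and NFKB1 the shortest. Taken protein by protein, the median distance was 2637 bp to FOS, 3197 bp to JUN, 4863 bp to JUNB and 6147 bp to NFKB1.

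**Figure D1:**
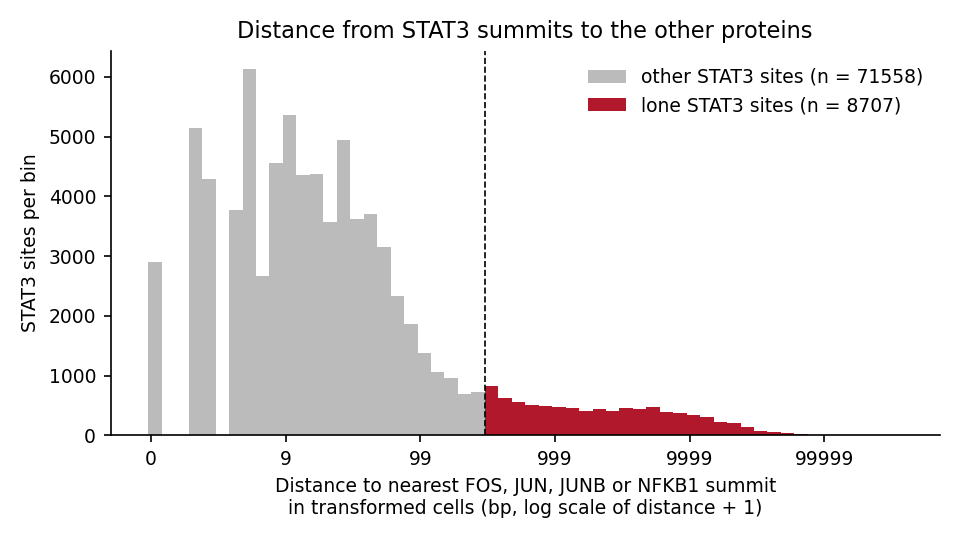
Number of STAT3 sites of transformed cells (vertical axis) by distance from the STAT3 summit to the nearest FOS, JUN, JUNB or NFKB1 summit of transformed cells (horizontal axis, bp, log scale of distance plus 1). The dashed line marks 300 bp; the 8707 lone sites (red) form a long tail with a median of 1922 bp, while the other 71558 (gray) have a median of 12 bp.

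A minority of lone sites stood near a shared cluster of the other proteins. The nearest summit lay from 301 to 500 bp away at 1559 lone sites (17.9%), from 501 to 1000 bp at 1543 (17.7%), from 1001 to 5000 bp at 3058 (35.1%), from 5001 to 50000 bp at 2478 (28.5%) and beyond that at 69 (0.792%). A neighbor within 1000 bp was found at 3102 of the 8707 lone sites (35.6%). Of these 3102, 1343 (43.3%) had all 4 other proteins in that range, and at 990 of the 1343 the 4 summits lay within 100 bp of one another. The same counts were not taken over the other STAT3 sites. At 755 of the 3102 just 1 of the 4 proteins was that close. The limit cut through a continuous range: 12 lone sites lay at 301 bp and 14 STAT3 sites just missed membership at 300 bp. The strongest members just inside were chr4:75096493-75097217, with 52 STAT3 reads and a JUN summit at 301 bp, and chr6:11433399-11433697, with 24 reads and a JUNB summit at 301 bp. Just outside were chr16:85028354-85028955, with 23 reads, and chr11:118036646-118036806, with 13 reads, each with a JUNB summit at 300 bp. Coordinates are those of the lists, 1-based, on hg19 as the submitters' processing notes name it.

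Peaks have width, and a lone summit can belong to a peak that touches another one. The whole STAT3 peak overlapped a whole peak of another protein in transformed cells at 349 lone sites (4.01%), against 88.4% of all STAT3 sites, a contrast that follows from the rule. FOS was among the overlapping proteins at 296 of the 349, JUN at 168, JUNB at 137 and NFKB1 at 117. At 245 lone sites (2.81%) the STAT3 summit itself stood inside such a peak. The lists give 1 summit per peak, so a wide peak is represented by its highest point alone.

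Lone STAT3 sites were low and short. Their median height was 7 reads (middle 50%, 6 to 10; range 4 to 96), or 0.781 RPM, and their median fold enrichment as deposited was 5.73. The caller adds 1 read to the height and 1 to the local background before it divides them, so these folds understate the enrichment over a background whose median at lone sites was 0.407 reads. A count of 7 reads has an exact Poisson 95% interval of 2.81 to 14.4. Sites with AP-1 only had a median of 9 reads, sites with NFKB1 only 8, and sites with both 15. The median lone peak was 140 bp long, against 167 bp with AP-1 only, 165 bp with NFKB1 only and 252 bp with both. The shortest length in the list, 119 bp, occurred at 2716 lone sites (31.2%) and at 9.94% of the other STAT3 sites.

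The distributions overlapped widely in spite of the different medians. A height of at most 7 reads was found at 54.3% of lone sites (53.3 to 55.3%) and at 23% of the other STAT3 sites. At the upper end, 354 lone sites (4.07%, 3.67 to 4.50%) and 28.1% of the other sites had at least 20 reads, and 39 lone sites and 9.46% of the others had at least 40. Sorted by significance, the most significant 25% of the STAT3 list held 338 lone sites (1.68% of that part), the next 25% held 1309 (6.52%), the next 2547 (12.7%) and the least significant 25% held 4513 (22.5%). The last part thus held 51.8% of all lone sites. The median was 7 reads in each of the 5 distance ranges. The share with at least 20 reads was highest at 301 to 500 bp, 5.26% (4.26 to 6.48%), a range with 333 of the lone peaks that overlapped another protein's. It did not fall steadily beyond: 3.31% at 501 to 1000 bp, 4.55% at 1001 to 5000 bp and 3.23% (2.60 to 4.00%) at 5001 to 50000 bp. Beyond 50000 bp it was 2.90% of 69 sites.

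**Figure D2:**
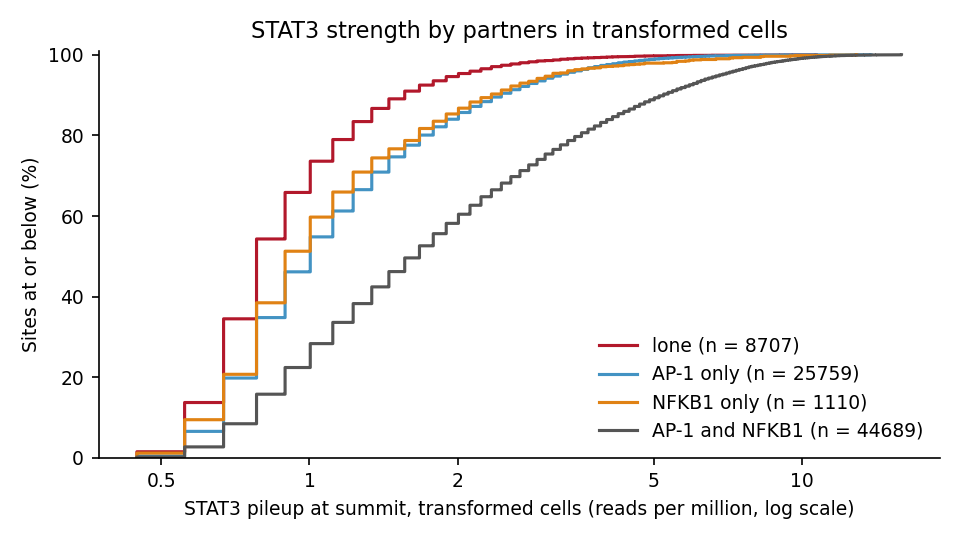
Cumulative share of STAT3 sites (vertical axis, percent) by STAT3 peak height in transformed cells (horizontal axis, RPM, log scale), for lone sites and for sites with AP-1 only, NFKB1 only or both. The curve of lone sites lies to the left, with a median of 0.781 RPM; 1 library, so the steps are single reads.

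The lists of non-transformed cells took no part in the choice of sites. Those of FOS, JUN, JUNB and NFKB1 hold the same proteins that the rule used in transformed cells. A STAT3 summit of non-transformed cells lay within 300 bp of 1197 lone sites (13.7%, 13.0 to 14.5%), whereas the share over all STAT3 sites of transformed cells was 38.4% and that over the sites with partners 41.4%. Lone sites were below the sites with partners by 27.6 percentage points (Newcombe 95% interval of the difference over sites, -28.4 to -26.8). They were also below each class on its own, which stood at 21.6% with AP-1 only, 26.4% with NFKB1 only and 53.1% with both. The smallest of these gaps, to the sites with AP-1 only, was 7.88 percentage points (interval of the difference, -8.75 to -6.98).

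The other 4 proteins were rare there in non-transformed cells as well. The rule had left out sites with these same proteins in the same cell line, so these shares are not independent of the choice. How much of the gap carries over from the rule was not tested. FOS had a summit within 300 bp at 516 lone sites (5.93%), against 67.7% of all STAT3 sites. JUN had one at 446 (5.12%), against 53.0%. JUNB had one at 164 (1.88%), against 47.0%. NFKB1 had one at 52 (0.597%), against 12.4%, in the shallowest library. At least 1 of the 4 was present at 1009 lone sites (11.6%, 10.9 to 12.3%), against 74.5% of all STAT3 sites and 82.2% of those with partners. Most lone sites therefore lacked these proteins in the lists of both states.

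**Figure D3:**
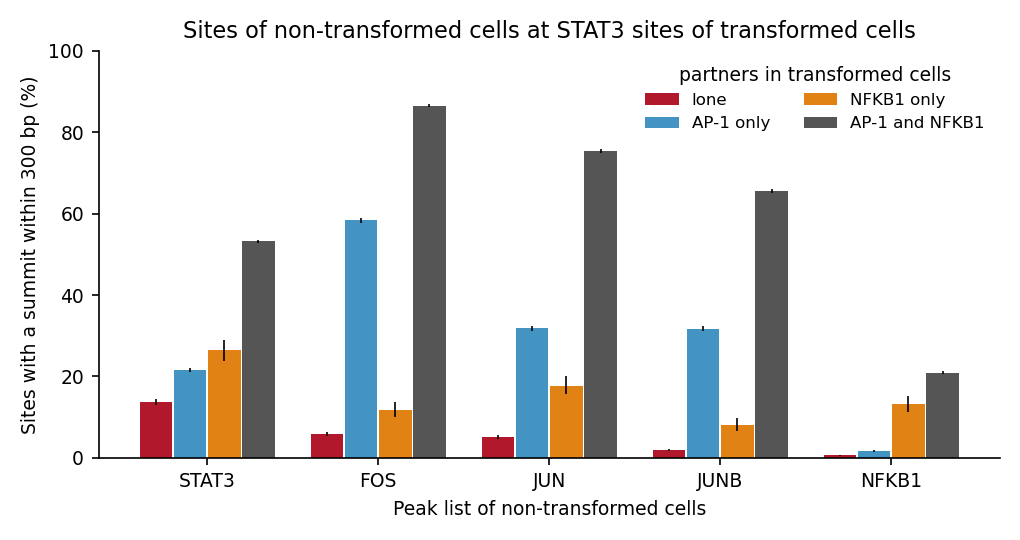
Share of STAT3 sites of transformed cells (vertical axis, percent) that have a summit of the named protein within 300 bp in non-transformed cells (horizontal axis), by class of partners in transformed cells; bars are shares and lines Wilson 95% intervals over sites. Lone sites (red) have the lowest bar for each of the 5 lists, from 13.7% for STAT3 to 0.597% for NFKB1.

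Low peak height and absence from the other state moved together, so shares were also compared among sites of like STAT3 height in transformed cells. A STAT3 summit of non-transformed cells was present at 3.51% of lone sites with 4 or 5 reads and at 19.2% of the other STAT3 sites of that height. The shares were 7.67 against 19.1% at 6 or 7 reads, 13.1 against 26.3% at 8 to 10, 24.3 against 36.7% at 11 to 15, and 45.4 against 56.0% at 16 to 30. Above 30 reads the shares were 66.7% of 87 lone sites and 81.2% of the others, a difference of -14.6 points with an interval of -25 to -5.52. At each height lone sites were thus 10.5 to 15.7 points below, while the share itself climbed with height in both sets. For FOS, JUN, JUNB or NFKB1 in non-transformed cells the pattern was flatter: 8.70% of lone sites with 4 or 5 reads, 14.3% with 16 to 30 and 34.5% above 30 reads had such a site, against 76.0, 85.3 and 90.7% of the other STAT3 sites.

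**Figure D4:**
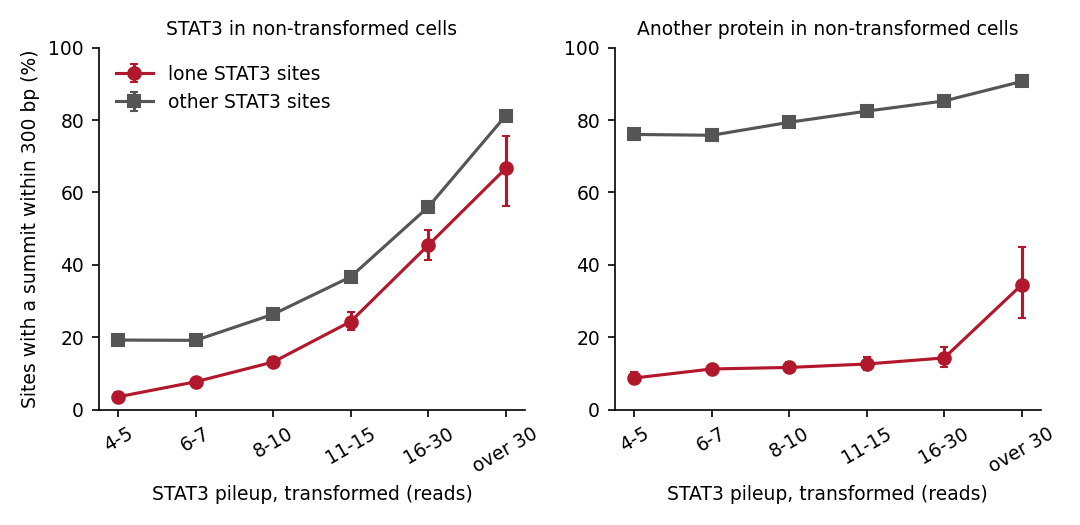
Share of STAT3 sites (vertical axis, percent, with Wilson 95% intervals over sites) that have a STAT3 summit (left) or a FOS, JUN, JUNB or NFKB1 summit (right) of non-transformed cells within 300 bp, by STAT3 height in transformed cells (horizontal axis, reads). Lone sites (red) climb from 3.51 to 66.7% on the left and stay between 8.70 and 34.5% on the right, below the other STAT3 sites at each height.

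Combining these lists, 6816 lone sites (78.3%, 77.4 to 79.1%) had neither STAT3 nor any of the other 4 in non-transformed cells. Their median height was 7 reads and 2.0% of them had at least 20. STAT3 alone was listed in non-transformed cells at 882 lone sites (10.1%), which had a median of 11 reads in transformed cells and at least 20 in 17.0% of cases. At 694 lone sites (7.97%) 1 or more of the other proteins was listed without STAT3, and at 315 (3.62%) both were. The other proteins came singly at 859 lone sites, in pairs at 131 and as 3 at 19, and no lone site had all 4. Neither these numbers nor the combinations were counted over all STAT3 sites, so they have no background of their own. Taken singly, STAT3 was listed at 38.4% of all STAT3 sites and at least 1 of the other 4 at 74.5%. The choice by the rule bears on the combinations as it does on the single shares.

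The sites where another protein was listed within 300 bp only before transformation were low in that protein beside its whole list. The rule kept only sites with no such summit in transformed cells, a choice that can favor low peaks. No comparison with like STAT3 sites was made. The 516 FOS sites had a median of 9 reads in non-transformed cells, while the whole FOS list had 16; the 446 JUN sites had 8 against 11, the 164 JUNB sites 7 against 10 and the 52 NFKB1 sites 7 against 8. In transformed cells the same protein still had a summit at 301 to 1000 bp for 216 of the 516 FOS sites, 175 of the 446 JUN sites, 66 of the 164 JUNB sites and 38 of the 52 NFKB1 sites. No summit of it lay within 1000 bp for the remaining 300, 271, 98 and 14 sites, respectively. Absence here means that no summit was listed.

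Both shares were highest in the closest distance range. Lone sites with a neighbor from 301 to 500 bp away had a STAT3 site of non-transformed cells in 17.6% of cases (15.8 to 19.6%) and another protein in 21.3% (19.3 to 23.4%). From 501 to 1000 bp the values were 12.9 and 10.5%, from 1001 to 5000 bp 13.8 and 9.12%, and from 5001 to 50000 bp 12.0 and 9.32%. Only the closest range stood apart for the other proteins. The 349 lone sites whose whole peak overlapped another protein's had STAT3 in 22.3% and another protein in 44.1% of cases, and the 8358 without overlap had 13.4 and 10.2%.

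Where STAT3 was listed in both states, its height at lone sites differed little between them. Over the 1197 such sites the median height was 11 reads in each library, and the median ratio of transformed to non-transformed RPM was 1.22 (1.13 to 1.22), compared with 1.69 (1.68 to 1.71) at the STAT3 sites with partners. The ratio was 1.37 with AP-1 only, 1.43 with NFKB1 only and 1.78 with both. The height was at least 2 times higher in transformed cells at 171 lone sites (14.3%), against 38.0% of all STAT3 sites listed in both states, and at least 2 times lower at 52 (4.34%), against 1.47%. The STAT3 summits of the states lay a median of 32 bp apart at lone sites and 29 bp at the others.

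The lower ratio was also seen within ranges of height in non-transformed cells. With 5 to 7 reads there the median ratio was 1.42 over 154 lone sites and 1.92 over the others, with 8 to 10 it was 1.22 against 1.71, and with 11 to 15 it was 1.12 against 1.65. At 16 reads or more it was 0.880 over 261 lone sites (0.834 to 0.932) and 1.65 over 10102 others. Choosing sites by height in non-transformed cells, the denominator, favors low ratios in both sets, and not necessarily to the same extent. The range of 16 reads or more has no upper end, so heights within it can differ between the sets. How much of the gap comes from this choice was not tested, and the values do not give the direction at lone sites. Chosen by height in transformed cells instead, the 193 lone sites with at least 20 reads there and STAT3 in both states had a median ratio of 2.0 (1.88 to 2.22), with 20 under 1. The other STAT3 sites with at least 20 reads had 2.44. Over all sites with at least 20 reads, the median height was 24 reads at lone sites and 32 at the others, so these 2 ratios are not at like height. A site must pass the threshold in both libraries to have a ratio, so these values leave out lone sites that were listed in 1 state only.

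The highest lone sites fell into more than 1 kind. Of the 354 with at least 20 reads, 54 overlapped a peak of another protein, with a median length of 721 bp, 218 had no overlap but a neighbor within 5000 bp, with a median of 254.5 bp, and 82 lay farther off, with a median of 226 bp. STAT3 was listed in non-transformed cells at 27 of the 54 (50%), 123 of the 218 (56.4%) and 43 of the 82 (52.4%). It was listed at 71.7% of the other STAT3 sites with at least 20 reads, whose median height was 32 reads against 24 at the 354. Another protein was listed in non-transformed cells at 31 of the 54 (57.4%), 28 of the 218 (12.8%) and 9 of the 82 (11%), against 88.4% of the other sites. Among the 20 lone sites with the highest fold enrichment (31.5 to 58.0), 14 overlapped another peak, 13 had all 4 other proteins within 1000 bp, 3 lay over 5000 bp from any, and the median length was 886 bp. Among the 100 highest, 31 overlapped, 21 lay over 5000 bp away and 69 had STAT3 in non-transformed cells.

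The 5 highest lone sites with STAT3 in both states were all wide peaks with a compact cluster of the other proteins to 1 side. At chr1:96881471-96882360 STAT3 had 85 reads and a fold enrichment of 58.0, and the FOS, JUN, JUNB and NFKB1 summits lay 321 to 332 bp to its left. In non-transformed cells STAT3 had 61 reads 3 bp away, so that the ratio of RPM was 1.70 (exact 95% counting interval 1.21 to 2.40). At chr1:87253828-87254915 STAT3 had 86 reads against 14 in non-transformed cells, a ratio of 7.49 (4.23 to 14.3), with the others 381 to 462 bp to the left. At chr12:27496148-27496920 it had 74 and 13 reads, a ratio of 6.94 (3.82 to 13.6), with the others 397 to 454 bp to the right.

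The remaining pair followed the same layout. At chr21:40182750-40183697 STAT3 had 96 reads, the highest count of any lone site, and 29 in non-transformed cells, a ratio of 4.03 (2.64 to 6.34), and the others stood 339 to 363 bp to the right. At chr7:41025820-41026536 it had 75 and 23 reads, a ratio of 3.97 (2.46 to 6.65), and the others stood 314 to 341 bp to the left. The STAT3 summits of the states lay 2 to 78 bp apart at these 5 sites. FOS of non-transformed cells had its summit with the STAT3 summit at the sites on chromosomes 12 and 7, 38 and 37 bp away with 10 reads each, and its summit in transformed cells was the one in the cluster.

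Among the 8 highest lone sites with no STAT3 summit of non-transformed cells within 300 bp, 7 overlapped another protein's peak. The first, chr6:58776563-58779253, was 2691 bp long with 70 STAT3 reads. All 9 other lists, STAT3 of non-transformed cells among them, had their nearest summit 1326 to 1370 bp away in a peak that overlapped it. The lists were made without an input control, so whether this wide region shows binding or a signal common to all libraries was not tested. At chr5:92672160-92673237 STAT3 had 75 reads, the other summits of transformed cells lay 474 to 518 bp to the left, and no STAT3 summit of non-transformed cells lay within 12391 bp, while FOS had 10 reads there 1 bp from the STAT3 summit. At chr18:68687633-68688423 STAT3 had 42 reads, the other summits lay 393 to 408 bp to the right, and FOS and JUN of non-transformed cells had 9 reads each, 20 and 11 bp from the STAT3 summit.

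At 4 more of these sites STAT3 of non-transformed cells was likewise not absent, and its summit stood with the cluster. At chr1:232278093-232279308, with 81 reads, its summit lay 564 bp to the left with 37 reads. At chr21:39649250-39650131, with 59 reads, it lay 335 bp to the left with 20 reads. At chr6:138132946-138133355, with 50 reads, it lay 386 bp to the left with 42 reads, and at chr11:128079947-128080840, with 44 reads, 389 bp to the right with 26 reads. The listed STAT3 summit thus differed in place between the states at these 4 sites. The remaining site, chr4:82593485-82593793, was 309 bp long with 41 reads; the nearest other summit was FOS at 1891 bp, and STAT3 of non-transformed cells was 39439 bp away.

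**Figure D5:**
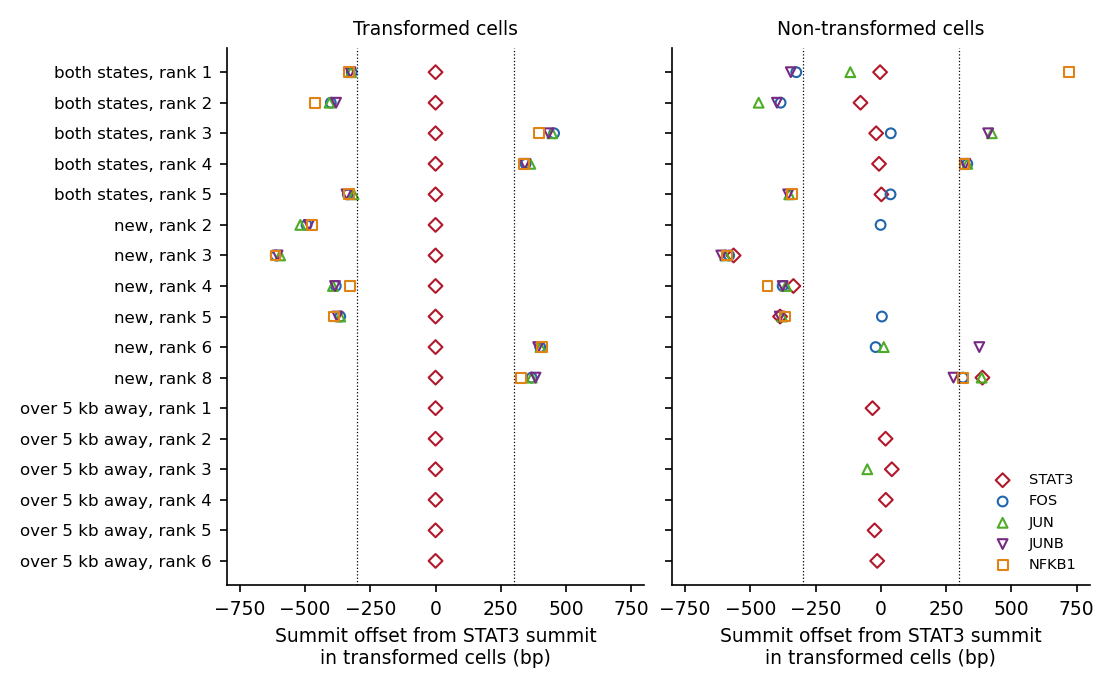
Positions of the nearest STAT3, FOS, JUN, JUNB and NFKB1 summits relative to the STAT3 summit of transformed cells (horizontal axis, bp) in transformed (left) and non-transformed (right) cells; each row is a named lone site, ranked by fold enrichment within its kind, and dotted lines mark 300 bp; the sites ranked 1 and 7 among the 8 without a nearby STAT3 summit have no other summit in range and are not drawn. The 5 sites in both states and 6 of the 8 without a nearby STAT3 summit in non-transformed cells have the other proteins in a cluster 314 to 613 bp away. The 6 sites over 5000 bp from others show STAT3 at about the same place in both states. Only 1 of these 6 has a JUN summit of non-transformed cells beside it.

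Of the lone sites over 5000 bp from any other protein, the 6 with the highest fold enrichment were chosen after their values were seen. All 6 had a STAT3 summit of non-transformed cells 14 to 42 bp away, and none overlapped another protein's peak in transformed cells. Such a STAT3 summit was no general trait of distant sites. It was listed at 12.0% of lone sites from 5001 to 50000 bp away. Among lone sites with at least 20 reads, it was listed at 52.4% of the 82 over 5000 bp away. The share was 56.4% of the 218 nearer ones without overlap. At chr17:71489419-71489755 STAT3 had 58 reads, and 10 in non-transformed cells, a ratio of 7.07 (3.58 to 15.5), and the nearest other summit in transformed cells was FOS at 18981 bp. At chr20:31797519-31797965 it had 43 and 15 reads, a ratio of 3.49 (1.90 to 6.77), with FOS at 52238 bp. JUN of non-transformed cells had a peak of 7 reads there, 52 bp away, the only site of another protein within 1000 bp of these 6 in either state.

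The other 4 were alike. At chr2:1513023-1513924 the counts were 50 and 26 reads and the ratio 2.34 (1.43 to 3.92). At chr16:68679959-68680395 they were 41 and 10 reads and 5.00 (2.46 to 11.2). At chr4:99413037-99413287 they were 40 and 13 reads and 3.75 (1.96 to 7.64), and at chr1:112161954-112162396 they were 37 and 19 reads and 2.37 (1.33 to 4.37). Each of the 6 ratios had a counting interval above 1, but the sites were picked for fold enrichment in transformed cells, which favors high ratios. The highest such sites without STAT3 in non-transformed cells were chr1:32712595-32712803, with 36 reads, and chr17:4655401-4655587, with 33 reads, where the nearest STAT3 summit of non-transformed cells was 24773 and 21593 bp away.

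Picked instead for height in non-transformed cells, also after the values were seen and a choice that favors low ratios, the 3 highest lone sites gave ratios nearer to 1. At chr3:122282908-122283405 STAT3 had 71 reads before and 54 after transformation, a ratio of 0.927 (0.638 to 1.34), with the nearest other summit of transformed cells at 3435 bp. At chr5:148865247-148866573 it had 69 and 84 reads, a ratio of 1.48 (1.07 to 2.07), beside a cluster whose nearest summit was NFKB1 at 402 bp. At chr7:130756542-130757524 it had 67 and 39 reads, a ratio of 0.709 (0.465 to 1.07), beside a JUN peak of 7 reads at 370 bp.

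Lone sites were scattered among the other STAT3 sites. The median distance to the next STAT3 site of any class was 4437 bp, compared with 5131 bp for sites with AP-1 only, 3087 bp with both and 1446.5 bp with NFKB1 only, and 26.7% of lone sites had another STAT3 site within 1000 bp. Another lone site was much farther, at a median of 70195 bp, and 4.90% had one within 1000 bp. The median distance to a site of the same class was 21818 bp with AP-1 only, 581200 bp with NFKB1 only and 6367 bp with both. The larger the class, the shorter this distance was, so it is no trait of lone sites by itself. The share of STAT3 sites that were lone ranged from 9.40% on chromosomes 10 and 12 to 13.9% on chromosome 19 (12.3 to 15.7%). A local background, worked back from the height and the deposited fold, over 2 times the lowest in the list, as regions with extra copies or many repeats can give, was found at 2.23% of lone sites and at 3.09% of the other STAT3 sites.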

How the data were processed

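STAT3, FOS, JUN, JUNB and NFKB1 were profiled by ChIP-seq in non-transformed and transformed ER-Src cells, 1 library per group, and groups were taken from the labels. Peaks came from the authors' MACS 2.0.10.20131216 runs, 1 per library, on uniquely aligned 36-bp reads, without an input control, at 1 read per position, a q cutoff of 0.05 and a local background over 1000000 bp. The submitters' processing notes name Bowtie and hg19. The deposited pileup is a signal, the extended reads over the summit. The deposited significance columns hold −log10 p-values and −log10 q-values. The fold enrichment column as deposited is a ratio, which the values show to be pileup plus 1 over local background plus 1.

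Sites were shared when summits lay within 300 bp. Heights are pileup per 1000000 filtered reads (RPM). Shares have Wilson, differences Newcombe, medians order-statistic and counts exact Poisson or binomial 95% intervals; with 1 library per group nothing was tested. The interval code was tested on simulated data. Alternatives changed the distance, the peaks, the lists and the unit. Named sites were the 8 highest by fold without and 5 with STAT3 in non-transformed cells and the 2 nearest on each side of the limit; sites over 5000 bp from others and those highest in non-transformed cells were added after values were seen. The members and lists were chosen with earlier results of these data known. The genome at hand was GRCh38, past whose chromosome ends 243 of the STAT3 peaks of transformed cells run, so sequence, motifs, genes and start sites were not analysed here. Python 3.11.15, numpy 2.4.6, pandas 2.3.3, scipy 1.17.1 and matplotlib 3.10.9 were used.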

Additional observations from a re-analysis of the deposited data

How the results depend on the processing

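The number of lone STAT3 sites, 8707 of 80265, depended on how alone was drawn. It was 5605 with a limit of 1000 bp and 13964 without the FOS list (an alternative chosen after seeing the data). It was 21865 when only the more significant part of each other list could exclude a site. With only the more significant part of the STAT3 list it was 1647 of 40133 sites, a lower number in part because that list is shorter. The other 6 settings for this number, among them 150 bp, no overlap of whole peaks and, chosen after seeing the data, leaving out the JUN or the JUNB list, stayed within 1.5 times. The share with STAT3 in non-transformed cells, 13.7%, was 12.3% within 150 bp, 28.5% within 1000 bp, 12.9% for sites chosen at 1000 bp and 34.6% for the more significant lone sites. The share with another protein there, 11.6%, was 8.85% within 150 bp, 35.8% within 1000 bp, 10.4% by overlap of whole peaks, 9.19% for sites chosen at 1000 bp, 14.3% for the more significant lone sites and 10.2% for those whose whole peak overlapped none, the last chosen after seeing the data. For neither share was the value over all STAT3 sites taken at these settings, so they have no background beside them. The median ratio of STAT3 between states, 1.22, was 1.09 as fold enrichment (which adds 1 read to height and background) and 1.60 for the more significant lone sites, and in fold enrichment the median height was 5.73. The median ratio stayed above 1 in each of these settings, none of which chose sites by height in non-transformed cells. At 16 reads or more there it was 0.880, so these settings do not settle the direction. Comparisons with the other STAT3 sites were not rerun at other distances or for the more significant parts of the lists. No paired analysis was possible because each group has 1 sample, and no replicate could be left out. Settings for motifs, start sites and gene lists were not run because the reference genome is of another build. Depth limits what an absence means, since a protein missing from a list is one under the threshold of that library, and the NFKB1 library of non-transformed cells held the fewest reads, 4837474.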

Other observations

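The same rule applied to the non-transformed cells gave 8247 lone sites of 42810 STAT3 sites (19.3%, Wilson 95% interval 18.9 to 19.6%), with a median height of 8 reads. In transformed cells, 4874 of them (59.1%, 58.0 to 60.2%) had none of the 5 proteins within 300 bp. STAT3 together with another protein was listed at 1513 (18.3%), another protein without STAT3 at 1015 (12.3%), and STAT3 without another protein at 845 (10.2%, 9.61 to 10.9%). These outcomes were not counted over all 42810 STAT3 sites, so they have no background beside them and cannot be called particular to lone sites. The lone sites that kept a STAT3 summit, with or without another protein, had a median of 10 reads in non-transformed cells, and those without one had 8. The share of STAT3 sites that were lone was thus 19.3% before and 10.8% after transformation. The lists of the other proteins were longer in transformed cells, and their part in this difference was not tested.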
